A study of Mus musculus with 18 samples.

Results

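Small nucleolar RNAs (snoRNAs) and small Cajal body RNAs (scaRNAs) were followed in the mouse mammary carcinoma line NaF after treatment with ligands of nuclear receptors or with a saturated fatty acid. The members were all genes with a symbol that starts with Snora, Snord or Scarna, together with the U3 genes Rnu3a and Rnu3b1, in the probe annotation of the array. By symbol there were 110 such genes. Of these, 79 had at least 1 probe set of their own among the 22180 genes measured, 26 of them H/ACA, 48 C/D and 5 scaRNA, and 31 appeared only on probe sets listed with several genes. Rnu3b1 was among those 31, because its 4 probe sets are also listed with the other Rnu3b copies. A gene with several probe sets was represented by the one with the highest mean over the 18 Affymetrix arrays.

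The series compared ligands of the retinoic acid receptor (RAR) and of PPARδ in these cells, and added palmitate, a saturated fatty acid, with FABP5, a carrier protein for such lipids, named as the target. Each of the 6 groups had 3 arrays. All-trans retinoic acid, the natural RAR ligand, TTNPB, a synthetic RAR agonist, and GW1516, a synthetic PPARδ agonist, were each given at 1 µM for 6 hours. These cells had been in DMEM with 10% charcoal-treated serum, from which small lipophilic molecules are stripped, since 48 hours before the ligand, as had the charcoal controls. Palmitate was given at 10 µM for 6 hours in full medium, DMEM with 10% serum, and was set against untreated cells in full medium. All groups were the same single cell line, and the labels name no gene altered between groups. The labels do not say whether the 3 arrays of a group came from separate cultures, so the p-values given here rest on the spread among arrays, which may be technical.

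Most snoRNAs guide chemical changes on ribosomal RNA in the nucleolus. C/D snoRNAs work with fibrillarin, Nop56, Nop58 and Snu13 to direct methylation of the ribose, and H/ACA snoRNAs work with dyskerin, Nhp2, Nop10 and Gar1 to direct the conversion of uridine to pseudouridine. A few, such as U3, U8 and U13, take part in the cutting or folding of the ribosomal RNA precursor or in other modifications, and scaRNAs guide the same chemistry on spliceosomal RNAs in Cajal bodies. In mammals most snoRNAs are cut out of introns of host genes, many of which encode ribosomal proteins or nucleolar proteins or give non-coding Snhg RNAs. U3, U8, U13 and Scarna2 are transcribed from genes of their own.

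Values are the authors' deposited log2 expression values, so a difference of 1 is a doubling, and they compare 1 probe set across arrays rather than genes with each other. Members ranged from 0.60 to 11.07 over the 12 charcoal-serum arrays, with a median of 4.35, against a median of 1.26 for all genes. Snora33 averaged 11.07 there, Snord89 10.64 and Snord82 9.79, as readings of their own probe sets and not as amounts of RNA set against other genes. Background in each group was the 95th percentile of 1394 olfactory and vomeronasal receptor genes. Above it lay 70 of the 79 members in retinoic acid, 72 in TTNPB, 70 in GW1516 and 71 in charcoal control arrays, and 67 each in palmitate and full-medium control arrays. Snord61, Snord19, Snord90, Snord111, Snora19 and Snord91a were at or under background in every group. The 2 sets of arrays were scaled differently, with medians over all probe sets of 1.06 to 1.32 in charcoal serum and 0.47 to 0.55 in full medium, so no level was compared across sera.

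By position the members were short and mostly embedded in other genes. Their annotated lengths were 48 to 248 bases, with a median of 83. On GRCm38.p6, 74 of the 79 lay inside another gene, 53 in a protein-coding gene and 21 in a long non-coding RNA gene, and 5 lay outside any other gene (Rnu3a, Scarna2, Snord118, Snord13 and Snord89). The RNA was cleaned on silica columns of a kind made for longer RNA. How much of each short RNA they kept was not measured, and a probe set can also read the unspliced host transcript that holds the same bases.

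Several arrays stood apart in these RNAs. In palmitate replicate 2, 61 of the 79 members were lower than on both other palmitate arrays, and the median member lay 0.53 log2 units under the mean of those 2, while the median of all genes differed by 0.01. In TTNPB replicate 1, 54 members were the lowest of the group, with a median difference of -0.22. GW1516 replicate 3 lay farthest from its group over all genes, by a mean of 0.231 log2 units against 0.0816 to 0.145 on the other arrays, and its median member differed by -0.17. A list of 11 other short nuclear RNAs, among them the 7SK RNA and the RNA parts of RNase P and telomerase, was also low on these arrays. Their median difference was -0.32 in palmitate replicate 2, -0.13 in TTNPB replicate 1 and -0.27 in GW1516 replicate 3. Control arrays varied too. In full-medium replicate 1, 44 members were the lowest of the group, with median differences of -0.13 for the members and -0.13 for the other short RNAs. In charcoal replicate 2, 41 members were the lowest. There the median differences were -0.12 for the members and 0.11 for the other short RNAs, so the 2 sets did not always move together. The part of these array differences in the results was not tested. Left out together, GW1516 replicate 3 and palmitate replicate 2 gave 33 called members with retinoic acid, 13 with TTNPB, 13 with GW1516 and 7 with palmitate. Over all genes the shares called in that fit were 9.92%, 4.38%, 3.69% and 1.65% in the same order. Of 7 epithelial markers 4 or 5 were above background in each group, chiefly Krt18 (group means 7.99 to 8.38) and Cdh1 (3.21 to 5.46), while Epcam was at 0.39 to 1.57. Of markers of other cell types, Cdh5 (7.29 to 8.90, endothelium) and Pdgfra (2.26 to 5.65, fibroblasts) were well above background. The rest of their lists were not. Of 4 endothelial markers, Cdh5 alone was above background, and Pecam1, Kdr and Tek were under it in every group. Of 5 fibroblast markers, 1 to 4 were above background by group, and those other than Pdgfra had group means of 0.28 to 1.36. In bulk RNA, fewer cells with an RNA and less of it per cell cannot be told apart.

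**Figure D1:**
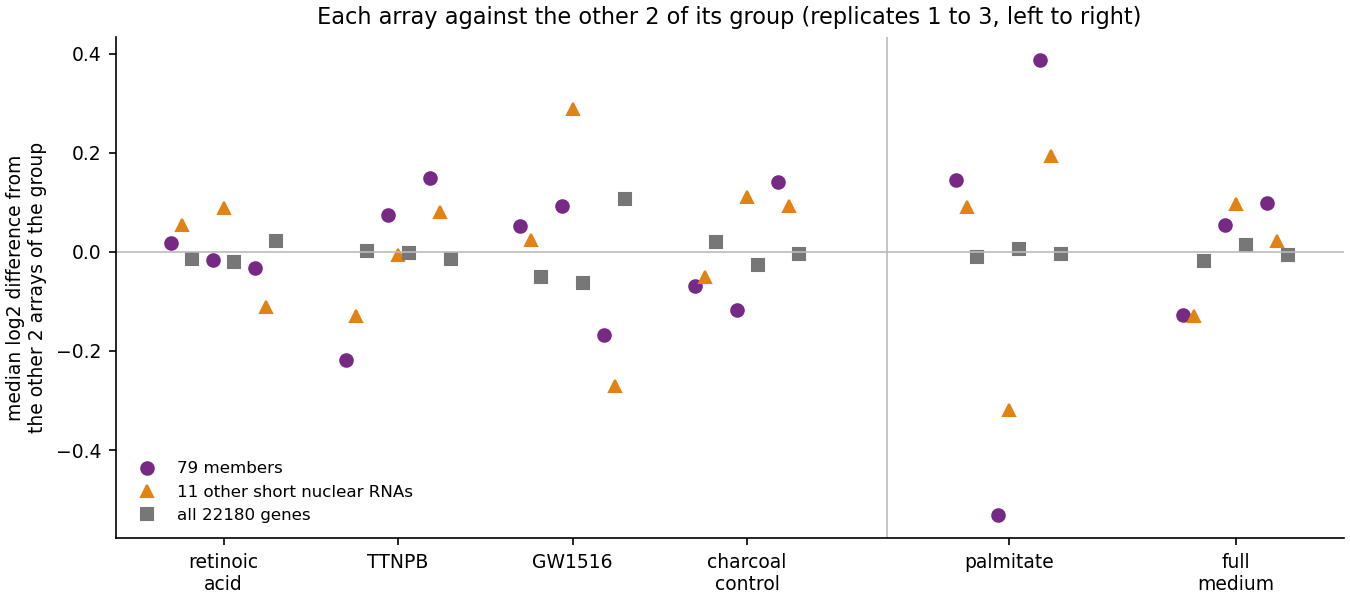
For each of the 18 arrays, the median log2 difference from the mean of the other 2 arrays of its group (vertical axis) over the 79 members (circles), 11 other short nuclear RNAs (triangles) and all 22180 genes (squares). Palmitate replicate 2 lies lowest, at -0.53 for the members and -0.32 for the other short RNAs, while its all-gene value is 0.01.

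Retinoic acid lowered 11 snoRNAs and 1 scaRNA, among them U3, U8 and U13. Adjusted for all genes by the Benjamini-Hochberg method, 13 members passed the threshold of 0.05 in the limma fit, 12 lower and 1 higher than in charcoal controls. Over all genes, 5.29% passed, 1.47% lower and 3.82% higher. The median change of the 79 members was -0.36, against -0.03 for all genes, and 66 members were below 0. All 3 retinoic acid arrays lay below all 3 controls for 34 members (43.0%), against 11.2% of all genes, and above them for 1 member (1.27%), against 12.9%. Among H/ACA members 6 of 26 fell and none rose (median -0.49), among C/D members 5 of 48 fell and none rose (median -0.34), and of 5 scaRNAs 1 fell and 1 rose (median 0.03). Of the 5 members outside other genes 3 fell and 1 rose, and of the 74 inside a host 9 fell (median -0.36). Over the 79 members, which share these arrays, annotated length and change had a Spearman rho of -0.31.

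The largest fall, among all 22180 genes as well as among the members, was that of Rnu3a, a gene for U3, the C/D RNA needed for the first cuts of the ribosomal RNA precursor. Rnu3a (chr10:40258468-40258679 on GRCm38.p6, outside any other gene) read 4.99, 5.03 and 4.67 with retinoic acid, against 6.64, 6.96 and 6.66 in charcoal controls. No array of one group overlapped the other. The log2 change was -1.86 (SE 0.34, adjusted p = 0.00292), a level 3.63-fold lower. Snord13 and Snord118, which also have genes of their own, fell too. Snord13 (chr8:31149861-31149958), the U13 RNA, which in humans is needed for acetylation of the small ribosomal RNA, read 7.48, 7.17 and 7.35 with retinoic acid and 7.97, 8.09 and 8.26 in controls, a change of -0.77 (SE 0.15, adjusted p = 0.00483). Snord118 (chr11:69073426-69073562), the U8 RNA, needed to process the large ribosomal RNAs, read 4.85, 4.20 and 4.98 with retinoic acid and 5.36, 5.69 and 5.62 in controls. Its change was -0.88 (SE 0.21, adjusted p = 0.0193), with no overlap between the groups.

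The 6 H/ACA members that fell all lie in host genes. Snora75 (chr1:86351170-86351285), within Ncl, the gene of the nucleolar protein nucleolin, fell most. It read 5.31, 5.83 and 5.24 with retinoic acid, against 6.86, 7.07 and 6.79 in controls, a change of -1.45 (SE 0.31, adjusted p = 0.00848). Snora34, in the chromatin regulator gene Kansl2, averaged 6.40 ± 0.33 with retinoic acid and 7.69 ± 0.11 in controls (SD, n = 3 each), a change of -1.29 (adjusted p = 0.0301 in the limma fit). Snora16a, in the non-coding host Snhg12, averaged 4.97 ± 0.26 with retinoic acid and 6.07 ± 0.18 in controls (change -1.10, adjusted p = 0.000593). Those 3 therefore fell by a factor of 2.14 to 2.73. Snora21, in the ribosomal protein gene Rpl23, changed by -1.02 (adjusted p = 0.00683), Snora68 by -0.97 (adjusted p = 0.0189) and Snora78, in Snhg9, by -0.83 (adjusted p = 0.00207). All 6 had every retinoic acid array below every control array.

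Of the C/D members inside host genes 2 fell. Snord11, in the gene of the C/D core protein Nop58, averaged 6.57 ± 0.10 with retinoic acid and 7.46 ± 0.15 in controls (SD, n = 3 each), a change of -0.89 (adjusted p = 0.00316 in the limma fit). Snord52, in the non-coding host 1110038B12Rik, averaged 2.45 ± 0.38 with retinoic acid and 3.71 ± 0.44 in controls (change -1.26, adjusted p = 0.0431).

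The scaRNAs split. Scarna6 (chr1:87784571-87784818), carried in the autophagy gene Atg16l1, read 6.13, 6.20 and 6.13 with retinoic acid, against 7.17, 7.02 and 7.24 in controls, and had the smallest p of all members here (change -0.99, SE 0.13, adjusted p = 0.000211). Scarna2 (chr3:108554342-108554402), a guide for U2 spliceosomal RNA with a gene of its own, was the only member that rose. It read 8.87, 8.92 and 8.99 with retinoic acid and 8.46, 8.55 and 8.65 in controls, a change of 0.37 (SE 0.08, adjusted p = 0.0126), and under median centring of the arrays it did not pass. Scarna17, a guide for spliceosomal RNAs, missed the threshold with a change of -0.53 (adjusted p = 0.0578).

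Of the 13 calls, 8 held under all 10 other settings and with any 1 of the 6 arrays left out (Rnu3a, Scarna6, Snora16a, Snora21, Snora75, Snora78, Snord11 and Snord13). Snora34 was lost whichever array was left out, with an adjusted p of up to 0.1195. Median centring left 9 members called, all lower, and quantile normalization gave 17, 16 of them lower. The share of all called genes that were higher was 84.5% after median centring, against 72.2% in the fit used and 56.8% after quantile normalization. Over all genes the count called ranged from 518 to 2201 across settings (1174 in the fit used). A shift in members alone cannot be read from these counts.

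**Figure D2:**
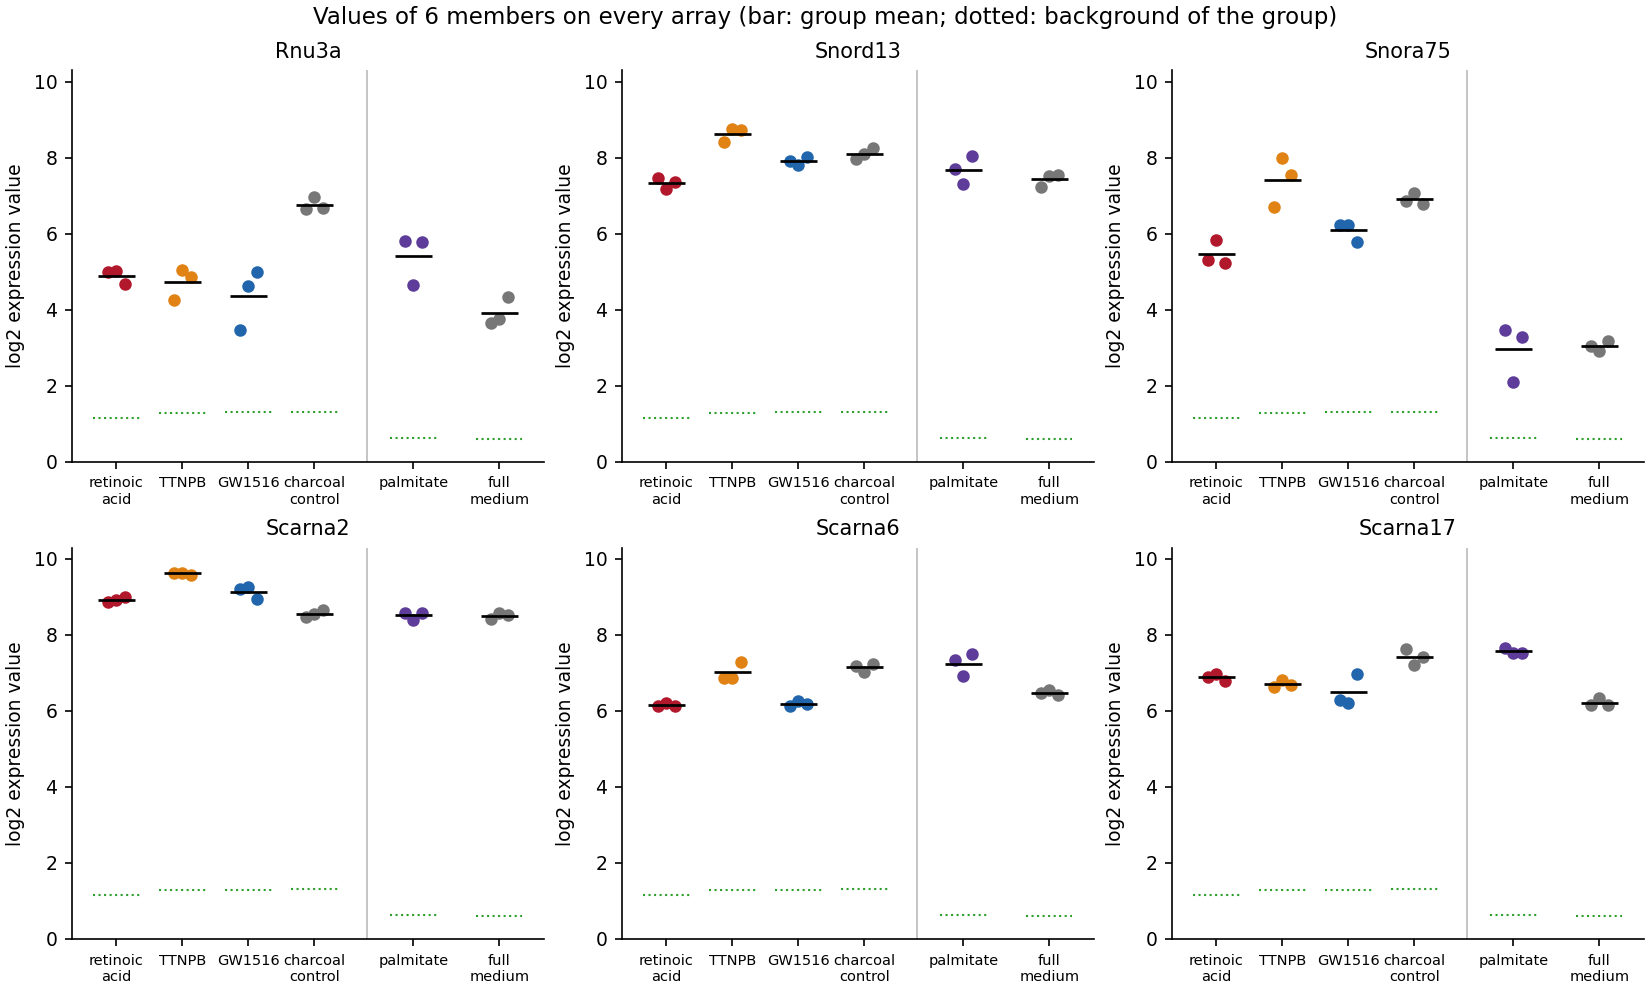
Log2 expression values (vertical axis) of 6 members on each array, by group, with charcoal-serum groups left of the grey line and full-medium groups right of it; bars are group means and dotted lines the background of the group. Rnu3a is lower with all 3 ligands than in charcoal controls and higher with palmitate than in full medium, and among charcoal-serum groups Scarna2 is highest with TTNPB.

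TTNPB changed fewer members. Called were 5 of 79, 2 higher and 3 lower, against 1.26% of all genes (0.618% higher and 0.64% lower). The median change was 0.06, against 0.00 for all genes, with 41 members above 0 and 38 below. Scarna2 rose most. It read 9.64, 9.64 and 9.58 with TTNPB, against 8.46, 8.55 and 8.65 in charcoal controls, without overlap, a 2.10-fold rise (log2 change 1.07, SE 0.08, adjusted p = 2.54e-06). Rnu3a read 4.25, 5.05 and 4.87 with TTNPB and 6.64, 6.96 and 6.66 in controls, a change of -2.04 (SE 0.34, adjusted p = 0.00455) and the largest fall of all genes. These were the only 2 of the 5 calls that held under all 10 settings and all left-out arrays.

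The other 3 calls under TTNPB were smaller. Scarna17 read 6.63, 6.81 and 6.69 with TTNPB and 7.62, 7.21 and 7.41 in controls (change -0.70, adjusted p = 0.0311). Snora78 averaged 3.75 ± 0.02 with TTNPB and 4.40 ± 0.09 in controls (SD, n = 3 each), a change of -0.65 (adjusted p = 0.0349 in the limma fit). Snord1b, a C/D RNA in Snhg16, averaged 3.26 ± 0.42 with TTNPB and 2.45 ± 0.15 in controls (change 0.81, adjusted p = 0.0438), and that call was lost in 5 of 10 other settings. Snord13, Snora75 and Snord118 did not pass. Their changes were 0.53 (adjusted p = 0.115), 0.51 (adjusted p = 0.624) and -0.37 (adjusted p = 0.583), and only Snord13 had all TTNPB arrays above all controls. Leaving out TTNPB replicate 2 or 3, or charcoal replicate 1 or 3, left 2 members called, and leaving out charcoal replicate 2 left 3. Counts over all genes moved as well, from 93 to 972 across settings (279 in the fit used).

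With GW1516, 9 members were called, 2 higher and 7 lower than in charcoal controls, against 2.57% of all genes (1.89% higher and 0.681% lower). The median member changed by -0.21, against -0.01 for all genes, and 61 members were below 0. By class, 3 of 26 H/ACA, 2 of 48 C/D and 2 of 5 scaRNA members fell, and 1 C/D and 1 scaRNA member rose. Rnu3a fell most, again more than any other of the 22180 genes, and its 3 GW1516 arrays were spread widely. It read 3.45, 4.61 and 4.99 with GW1516, against 6.64, 6.96 and 6.66 in controls, a change of -2.40 (SE 0.34, adjusted p = 0.00116), or a level 5.29-fold lower.

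The scaRNAs moved in both directions with GW1516. Scarna6 read 6.13, 6.25 and 6.19 with GW1516 and 7.17, 7.02 and 7.24 in controls (change -0.95, adjusted p = 0.00116). Scarna17 read 6.28, 6.21 and 6.98 with GW1516 and 7.62, 7.21 and 7.41 in controls, with GW1516 replicate 3 nearest to the controls (change -0.92, adjusted p = 0.00375). Scarna2 rose. It read 9.21, 9.26 and 8.94 with GW1516 and 8.46, 8.55 and 8.65 in controls (change 0.58, adjusted p = 0.00131).

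Of the remaining calls with GW1516, Snora68 changed by -1.02 (adjusted p = 0.0253), Snora16a by -0.69 (adjusted p = 0.0345), Snord104 by -0.69 (adjusted p = 0.0354), Snora78 by -0.59 (adjusted p = 0.0406) and Snord1b by 0.82 (adjusted p = 0.0283). With 1 of the 6 arrays left out, the Snora68 call held in 4 of 6 fits. Those of Snora16a and Snord1b held in 2 each, and those of Snord104 and Snora78 in 1 each. Snora75, Snord118 and Snord13 did not pass, with changes of -0.82 (adjusted p = 0.19), -0.37 (adjusted p = 0.435) and -0.19 (adjusted p = 0.585). A fit on the 6 arrays of this comparison alone called no member and 3 genes in all, so every call leans on the spread shared with the other groups. Without GW1516 replicate 3, 9 members were called, of which 7 were among those called with all arrays, and Snora68 and Snord104 were lost. Without charcoal replicate 2, 4 were. Median centring gave 1 higher and 3 lower, and quantile normalization 1 higher and 8 lower. Over all genes the called share that was higher was 73.5% in the fit used, 57.0% after quantile normalization and 85.0% after median centring. All-gene counts ranged from 3 to 1122 across settings (570 in the fit used), so a shift in members alone cannot be read from the member counts.

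The 3 ligand comparisons share the charcoal control arrays, so their values are set side by side here and not counted as repeats of each other. Rnu3a changed by -1.86 with retinoic acid, -2.04 with TTNPB and -2.40 with GW1516. Scarna2 changed by 0.37, 1.07 and 0.58 in the same order, and Snora78 by -0.83, -0.65 and -0.59. Those 3 members passed in all 3 comparisons, and 16 passed in at least 1. The Snora78 call was lost without any 1 of the 6 arrays for TTNPB and without any 1 of 5 of them for GW1516, and the Scarna2 call with retinoic acid without either of 2. Each of the other 63 passed in none of the 3, nor with palmitate.

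**Figure D3:**
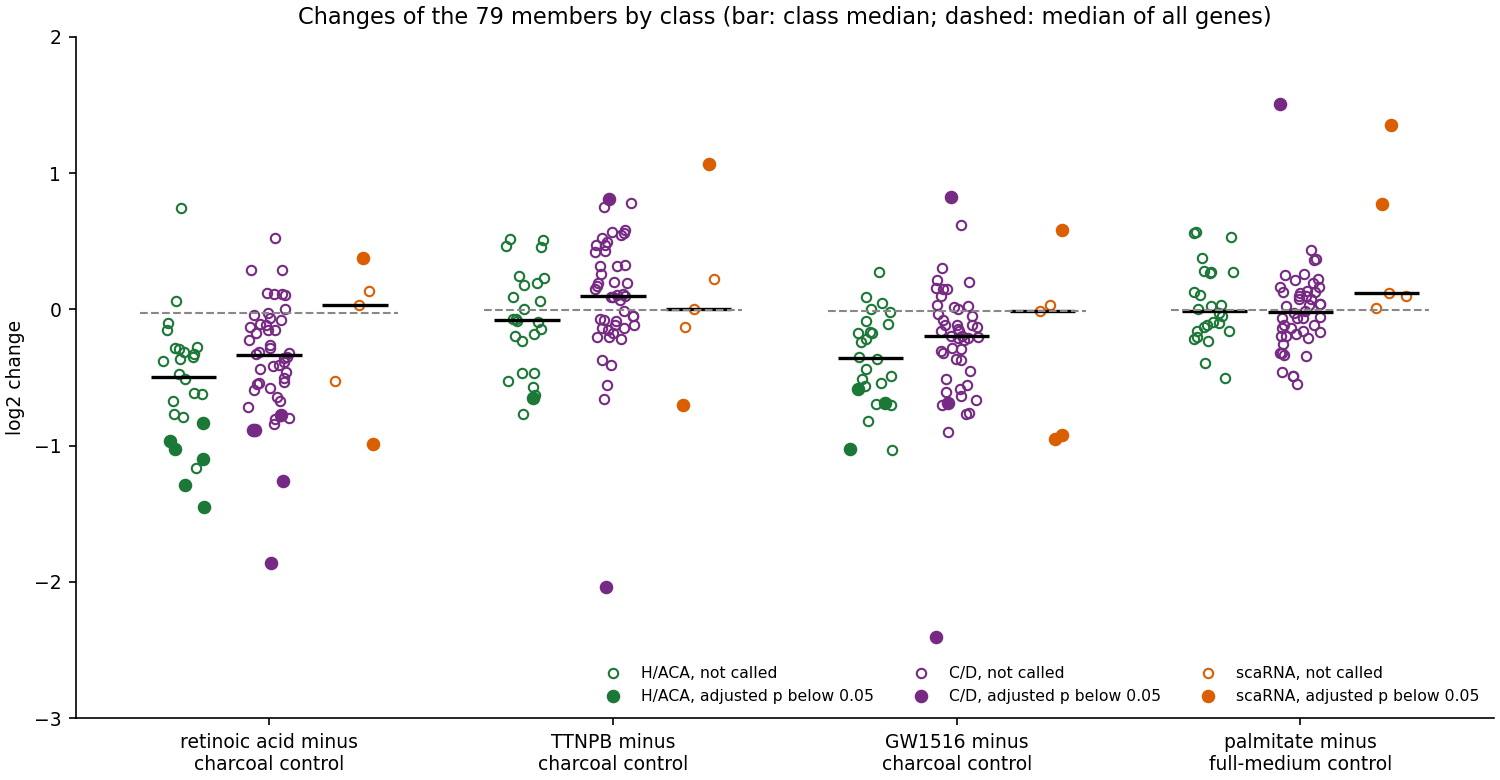
Log2 change (vertical axis) of each of the 79 members in the 4 comparisons with a same-serum control, by class; filled points passed an adjusted p of 0.05, bars are class medians and dashed lines the median of all genes. With retinoic acid most H/ACA and C/D points lie below the dashed line (medians -0.49 and -0.34), and with TTNPB the classes centre near 0.

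Direct comparison of the ligands used arrays of the same serum, dose and time. Retinoic acid and TTNPB are both RAR agonists, and TTNPB carries aromatic rings in place of part of the polyene chain of retinoic acid. The 3 ligands gave 3 pairs. Members called were 5 for retinoic acid minus TTNPB (0.153% of all genes were called), 0 for retinoic acid minus GW1516 (0.352%) and 3 for TTNPB minus GW1516 (0.0676%), and the counts were the same with p-values adjusted over the genes of all 3 pairs together. At an interval of 95% not adjusted for the number of genes, 32 members were lower and 1 was higher with retinoic acid than with TTNPB, 12 were lower and 5 higher with retinoic acid than with GW1516, and 2 were lower and 22 higher with TTNPB than with GW1516. Over all genes the shares lower and higher by that criterion were 2.94% and 4.33%, 4.22% and 5.08%, and 5.69% and 4.78% for the pairs in the same order.

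All 5 members called between the RAR agonists were lower with retinoic acid than with TTNPB. The widest gap, and the lowest value over all genes, was that of Snora75. It read 5.31, 5.83 and 5.24 with retinoic acid, against 6.71, 7.98 and 7.54 with TTNPB, a difference of -1.95 (95% interval -2.60 to -1.30, adjusted p = 0.00895). Snord13 read 7.48, 7.17 and 7.35 with retinoic acid and 8.41, 8.76 and 8.72 with TTNPB (difference -1.30, interval -1.62 to -0.98, adjusted p = 0.000641). In both genes the charcoal controls lay between the agonists in the group means.

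Scarna6 differed by -0.86 (interval -1.14 to -0.58, adjusted p = 0.00792), Snora44, in Snhg12, by -0.75 (interval -1.03 to -0.46, adjusted p = 0.032) and Scarna2 by -0.69 (interval -0.87 to -0.52, adjusted p = 0.000912). None of the 5 had overlapping arrays. The calls of Snord13 and Scarna2 held under all 10 other settings and all 6 left-out arrays. That of Snora75 was lost without any 1 of 4 arrays (adjusted p up to 0.0735), that of Snora44 without any 1 of 5 and that of Scarna6 without either of 2. Rnu3a and Scarna17 did not pass between the agonists. Rnu3a differed by 0.18 (interval -0.54 to 0.89, adjusted p = 0.961). Scarna17 differed by 0.18 (interval -0.15 to 0.50, adjusted p = 0.875). Snord118 differed by -0.51 (interval -0.96 to -0.06, adjusted p = 0.597). For 42 of the 79 members the interval lay within 1 log2 unit of 0.

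The median of the 79 members was -0.44 for retinoic acid minus TTNPB, against -0.01 for all genes, and 44 members (55.7%) had every retinoic acid array below every TTNPB array, against 6.52% of all genes. The other short nuclear RNAs had a median of -0.52 in this contrast, with 10 of 11 below 0 and 1 called, Rny3, the gene of a small cytoplasmic Y RNA (-0.90, adjusted p = 0.0331). Their part in the members' result was not tested. Among all genes called, 70.6% were higher with retinoic acid in the fit used and 85.0% after median centring, and quantile normalization gave 18 higher and 18 lower. The count of called members was 2 without retinoic acid replicate 1 or TTNPB replicate 3. It was 3 without replicate 3 of retinoic acid or replicate 2 of TTNPB. Counts over all genes ranged from 9 to 249 across settings (34 in the fit used).

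**Figure D4:**
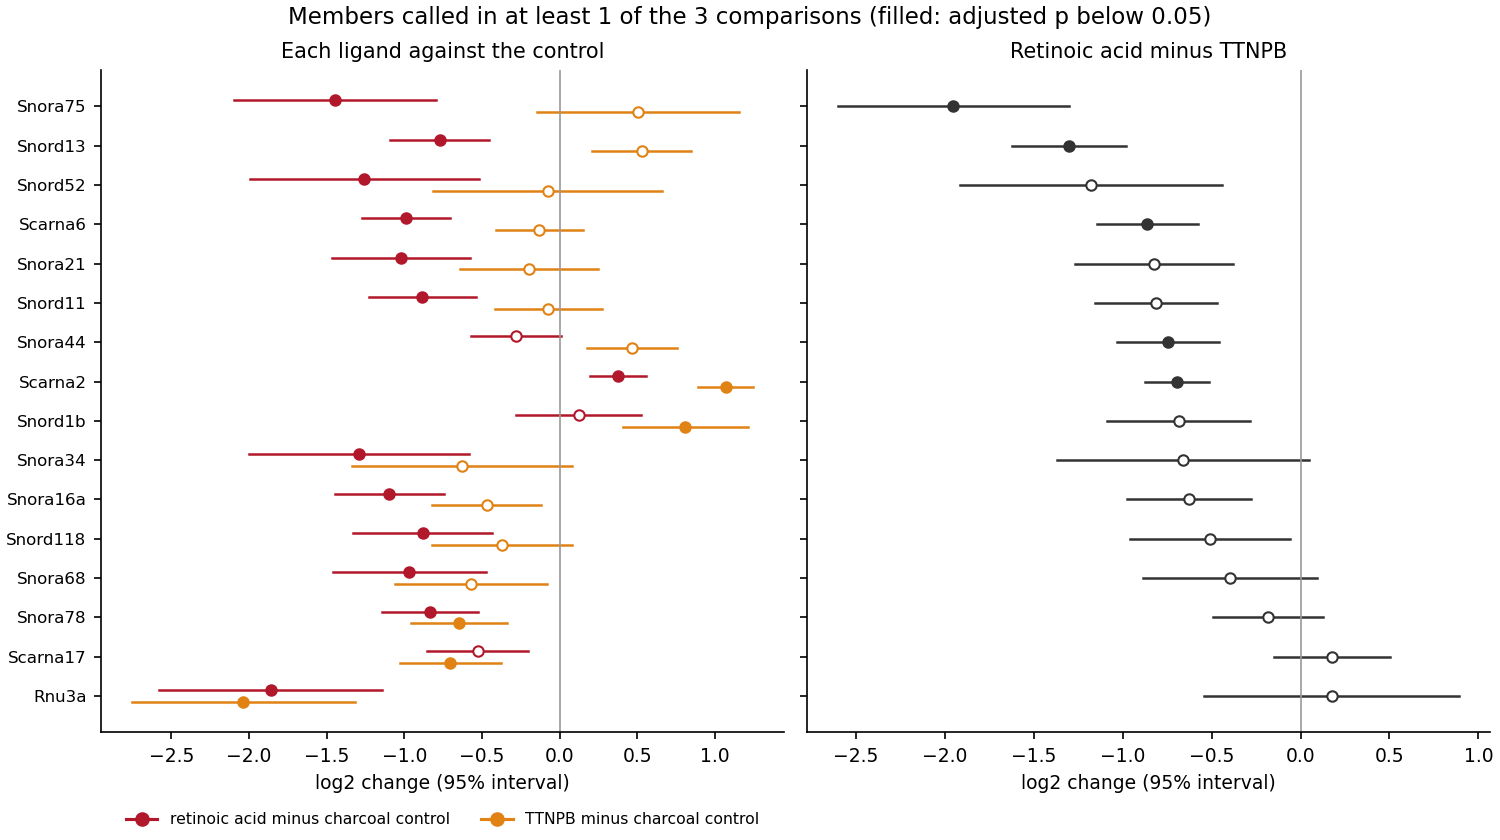
The 16 members called in at least 1 of the retinoic acid, TTNPB and retinoic acid minus TTNPB comparisons; horizontal axes give the log2 change with its 95% interval, for each agonist against charcoal controls (left) and between the agonists (right), and filled points passed an adjusted p of 0.05. Snora75 (-1.95) and Snord13 (-1.30) differ most, and Rnu3a (0.18) and Scarna17 have intervals that include 0.

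TTNPB and GW1516 differed in Scarna6 (0.82, interval 0.54 to 1.10, adjusted p = 0.021), Snora44 (0.83, interval 0.54 to 1.12, adjusted p = 0.021) and Scarna2 (0.48, interval 0.31 to 0.66, adjusted p = 0.0337), all higher with TTNPB. Without TTNPB replicate 2, TTNPB replicate 3 or GW1516 replicate 1 no member was called, and without TTNPB replicate 1 there was 1. Counts over all genes ranged from 0 to 66 across settings. Of the 15 genes called in all, 33.3% were higher with TTNPB, against 38.9% after quantile normalization and 0% after median centring, which called no member. Snora75 and Snord13 did not pass, with differences of 1.33 (interval 0.68 to 1.98, adjusted p = 0.155) and 0.72 (interval 0.40 to 1.04, adjusted p = 0.107), nor did Rnu3a (0.37, interval -0.35 to 1.08, adjusted p = 0.732) or Snord118 (-0.01, interval -0.46 to 0.44, adjusted p = 0.994).

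Between retinoic acid and GW1516 no member passed in limma, while 17 had an unadjusted 95% interval that excluded 0. Rnu3a differed by 0.54 (interval -0.17 to 1.26), Snord13 by -0.58 (interval -0.90 to -0.26), Snora75 by -0.63 (interval -1.27 to 0.02), Snord118 by -0.52 (interval -0.96 to -0.07) and Scarna2 by -0.21 (interval -0.39 to -0.03). Without GW1516 replicate 3, 2 members were called, 1 in each direction. Counts over all genes ranged from 2 to 195 across settings (78 in the fit used). Of all called genes 80.8% were higher with retinoic acid, and 70.6% after quantile normalization.

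Palmitate raised 3 members and lowered none, against 0.681% of all genes (0.144% higher and 0.537% lower). The median change was 0.01, with 41 members above 0 and 38 below. Scarna17 rose most clearly. It read 7.65, 7.53 and 7.52 with palmitate, against 6.15, 6.34 and 6.14 in full-medium controls, a 2.56-fold rise (log2 change 1.35, SE 0.16, adjusted p = 0.00051) that held under all 10 other settings and all left-out arrays. Scarna6 read 7.34, 6.91 and 7.49 with palmitate and 6.47, 6.54 and 6.41 in controls (change 0.77, SE 0.13, adjusted p = 0.00813). Its call held in 7 of 10 other settings and was lost without full-medium replicate 3 (adjusted p = 0.0523).

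Rnu3a read 5.82, 4.65 and 5.79 with palmitate and 3.64, 3.76 and 4.34 in full-medium controls (change 1.51, SE 0.34, adjusted p = 0.0487). The arrays did not overlap, but the call was lost in 6 of 10 other settings. It held in only 1 of the 6 fits with an array left out (adjusted p up to 0.209). Snord118 (0.44, adjusted p = 0.751), Snord13 (0.25, adjusted p = 0.918), Snora75 (-0.10, adjusted p = 1) and Scarna2 (0.01, adjusted p = 1) did not pass, and their arrays overlapped. A fit on the 6 arrays of this comparison alone called 1 member. Leaving out palmitate replicate 2, the array low in most of these RNAs, kept 3 called, and leaving out full-medium replicate 3 left 1. Counts over all genes ranged from 1 to 661 across settings (151 in the fit used). Of all called genes 21.2% were higher in the fit used, 33.0% after quantile normalization and 15.6% after median centring.

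Palmitate and the ligands were also set against each other, each relative to its own control. Over all genes, 2.56% were called for palmitate minus retinoic acid effects, 0.568% for palmitate minus TTNPB effects and 1.26% for palmitate minus GW1516 effects. Of the members, 8, 5 and 7 were called in the same order, 10 members in at least 1. Rnu3a differed by 3.37, 3.54 and 3.91, Scarna17 by 1.88, 2.06 and 2.27 and Scarna6 by 1.76, 0.90 and 1.73, in each case higher with palmitate. Serum and scaling differ between the arms, and their part cannot be told apart from that of the treatments.

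Host genes did not mirror their snoRNAs one for one. A measured host was at hand for 60 members, in 46 different genes. With retinoic acid the median change was -0.37 for these members and -0.03 for their hosts. Of the 46 hosts 3 were called higher and 4 lower, against 3.82% and 1.47% of all genes. Spearman's rho between member and host changes was 0.31 over the 60 (0.08 with TTNPB, 0.23 with GW1516 and -0.16 with palmitate). Members of 1 host share its value, and the 60 points share arrays, so the coefficients are descriptions. Of the 7 called members with a measured host, 1 host was called too, Atg16l1, which holds Scarna6 (change -0.44, adjusted p = 0.0273). With TTNPB, GW1516 and palmitate only 1, 3 and 1 called members had a measured host, and none of those hosts was called. Of the 46 hosts, 3, 8 and 1 were called in the same order, against 1.26%, 2.57% and 0.681% of all genes.

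Members of 1 host did not all pass together. In Snhg12, Snora16a changed by -1.10 with retinoic acid, Snora44 by -0.28, Snora61 by -0.15 and Snord99 by -0.12, of which Snora16a alone passed, while the host itself changed by -0.06 (adjusted p = 0.91). In Ncl, Snora75 changed by -1.45 and Snord82 by -0.41 (adjusted p = 0.659), and the host by 0.34 (adjusted p = 0.163). In Nop58, Snord11 changed by -0.89 and Snord70 by 0.11, and the host by 0.28 (adjusted p = 0.425). With TTNPB, Atg16l1 fell (-0.50, adjusted p = 0.0346) while Scarna6 did not pass (-0.13). Whether 2 members of a host differed was not tested.

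**Figure D5:**
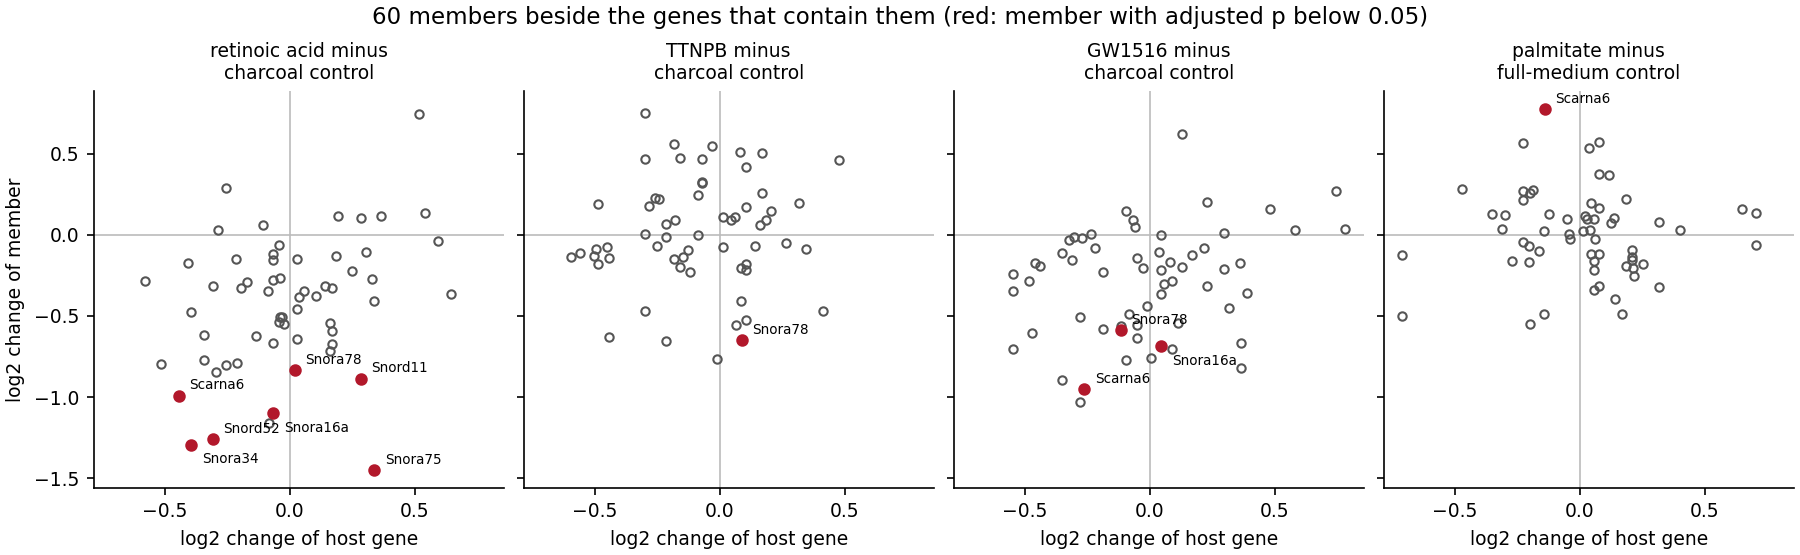
Log2 change of 60 members (vertical axes) against that of the gene that contains them (horizontal axes) in the 4 comparisons with a same-serum control; members with an adjusted p below 0.05 are red and named. With retinoic acid, Snora75 and Snord11 lie low while their hosts Ncl and Nop58 lie right of 0.

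The promoters of Snhg12, Ncl and Nop58 are shown because each drives a host whose snoRNA fell with retinoic acid while the host did not pass. Other hosts met this condition too, and no rule set these 3 apart. The search for runs of C or T was not among the motifs planned. They are from RefSeq (GRCm38.p6), 250 bases before to 50 after the annotated start, read 5′ to 3′ on the strand of the host. Capitals mark unbroken runs of at least 7 C or T between 20 bases before and 30 after the start, the kind of stretch with which transcripts of many ribosomal protein and snoRNA host genes begin. Snhg12 is chr4:132308428-132308727 on the plus strand, Ncl chr1:86359406-86359705 on the minus strand and Nop58 chr1:59684756-59685055 on the plus strand.
Snhg12: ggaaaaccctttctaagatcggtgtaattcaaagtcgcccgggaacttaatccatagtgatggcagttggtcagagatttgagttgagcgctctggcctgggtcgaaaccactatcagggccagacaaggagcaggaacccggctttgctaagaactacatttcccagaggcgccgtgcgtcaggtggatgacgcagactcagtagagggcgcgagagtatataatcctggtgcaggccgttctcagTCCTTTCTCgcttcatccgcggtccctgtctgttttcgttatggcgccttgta
Ncl: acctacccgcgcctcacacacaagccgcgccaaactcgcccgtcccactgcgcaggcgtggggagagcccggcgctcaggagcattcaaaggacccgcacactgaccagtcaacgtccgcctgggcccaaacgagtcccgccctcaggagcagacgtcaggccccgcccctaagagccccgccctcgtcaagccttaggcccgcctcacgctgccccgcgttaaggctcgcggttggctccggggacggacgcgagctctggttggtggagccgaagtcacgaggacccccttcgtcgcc
Nop58: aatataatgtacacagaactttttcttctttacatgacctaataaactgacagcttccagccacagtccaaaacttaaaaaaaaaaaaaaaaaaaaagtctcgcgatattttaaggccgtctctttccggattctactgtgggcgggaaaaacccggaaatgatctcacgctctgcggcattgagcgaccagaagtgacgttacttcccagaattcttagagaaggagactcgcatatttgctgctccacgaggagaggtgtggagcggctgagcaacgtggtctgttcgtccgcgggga
Snhg12 has 1 such run, of 9 bases, which spans its start, and Ncl and Nop58 have none in that window. Over the table, 28.6% of 32851 promoters hold one, and 19 of the 50 promoters listed for member hosts do. The letters TATAAA, searched on the strand of the gene in the 250 bases before the start, were in none of the 3, in 7.59% of all promoters and in 6 of the 50. A match describes the letters and is not a site.

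Other genes of the pathway were taken from 8 lists. Among the 4 C/D core proteins measured, Nop56 and Snu13 fell with retinoic acid, TTNPB and GW1516, and none rose. Nop56 changed by -0.51 (adjusted p = 0.000782), -0.56 and -0.47 in that order, and Snu13 by -0.53 (adjusted p = 0.000456), -0.34 and -0.35. Of the 4 H/ACA core proteins none passed in any of the 4 comparisons with a control, with medians of -0.18, -0.27, -0.26 and 0.03 for retinoic acid, TTNPB, GW1516 and palmitate. Of 11 assembly factors of snoRNA particles and 10 Cajal body genes none passed either.

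Among 12 genes of snoRNA processing and decay, Xrn1, a cytoplasmic exonuclease, rose with retinoic acid (0.68) and GW1516 (0.67), and no other passed. Among 13 genes of the processome that works with U3, Imp4 fell with TTNPB (-0.50) and no other passed. Of 13 factors at small nuclear RNA promoters, Snapc2 fell with retinoic acid (-0.52). Of 11 other short nuclear RNAs, Rnu12, the U12 spliceosomal RNA, fell with retinoic acid (-0.57, adjusted p = 0.0283), and none passed with TTNPB, GW1516 or palmitate. The medians of that list were -0.20 with retinoic acid, 0.17 with TTNPB, -0.20 with GW1516 and 0.11 with palmitate, and 10, 1, 9 and 4 of the 11 were below 0. The same sequence of medians for the members was -0.36, 0.06, -0.21 and 0.01, and what the lists share was not tested.

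Of 483 microRNA genes, whose products are also short, 2 were called with retinoic acid, both higher, and their median was -0.05, with 120 of them above background in either of the groups compared. Of 15 genes named Snhg or Gas5, Snhg17 fell with retinoic acid (-0.35), Snhg3, the host of Snora73a and Snora73b, fell with GW1516 (-0.55) and Snhg1 rose with palmitate (0.65).

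Members that share probe sets with other genes were read from 50 probe sets, in a fit of all 41345 probe sets. Some hold identical values, so they give 32 distinct readings. Of these 4 were called with retinoic acid (7 probe sets), 2 with GW1516 (5 probe sets) and 0 with TTNPB or palmitate. Over all probe sets 2.21% were called with retinoic acid, 0.385% with TTNPB, 0.885% with GW1516 and 0.249% with palmitate. The 4 probe sets listed for all Rnu3b copies held identical values and cannot be assigned to Rnu3b1. Their differences from controls were -0.98 with retinoic acid (adjusted p = 0.0189), -0.44 with TTNPB (adjusted p = 0.556), -1.08 with GW1516 (adjusted p = 0.0209) and 0.29 with palmitate (adjusted p = 1). Both probe sets listed for Snora17 and its host Snhg7 were lower with retinoic acid, by -1.36 (adjusted p = 0.000689) and -1.28 (adjusted p = 0.0185). Snord1b, called higher with TTNPB and GW1516 on its own probe set, is also listed with Snord1c on 2 probe sets. These changed by 0.42 and 0.41 with TTNPB (adjusted p = 0.687 and 0.699). With GW1516 they changed by 0.71 and 0.67 (adjusted p = 0.193 and 0.237), and neither passed with either ligand. Of the 79 members measured alone, Snora33 had 2 probe sets, with means of 11.06 and 1.73, and the higher one was used. Scarna17 also had 2, with means of 6.88 and 6.18, and the higher one was used. Changes of the second Scarna17 probe set alone are not given here. With the probe sets of each gene averaged, the Scarna17 calls with TTNPB, GW1516 and palmitate held. Over the other checks they were not equally firm. The limma call with TTNPB held in 8 of 10 settings and in 1 of 6 fits with an array left out (adjusted p up to 0.146). That with GW1516 was lost in the fit of only the groups compared. The 2 probe sets of Snora19 held identical values. Rnu3a, U3 being a family of near-identical copies, may read several of them.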

How the data were processed

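RNA from 18 samples was extracted with a phenol reagent and silica columns and hybridised as biotin-labelled cRNA to Affymetrix mouse arrays, per the labels' protocols. The authors deposited log2 expression values for 41345 probe sets, made with Partek per the submitters' processing notes; version, background correction and normalization are not given in the sources used here. Of these probe sets 23521 had 1 gene symbol, 1814 several and 16010 none, and the first gave 22180 genes.

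Group means of all 18 arrays were fitted with limma 3.58.1 in R 4.3.3 (lmFit and eBayes with a trend, 12 residual degrees of freedom), 2-sided, with p-values adjusted by the Benjamini-Hochberg method over all genes of each of 10 contrasts and called below 0.05. The fit was tested on simulated data with noise drawn independently for each gene. That test therefore does not cover shifts shared by many short RNAs on an array. No gene was filtered out. The number of arrays limits the precision.

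The members and all gene lists were chosen with earlier results of these data known. Named members are those called in a comparison, Rnu3a, Snord13, Snord118, Snora75 and Scarna2, and the highest of each class. A host is the shortest annotated gene that contains a member. Its strand was not used, since the RefSeq table gives none, which departs from the planned same-strand rule. Replicate numbers did not pair the arrays (correlations of deviations -0.28 to 0.21). Alternatives were other sample sets, variance priors, normalizations, thresholds and left-out arrays. Leaving out GW1516 replicate 3 and palmitate replicate 2 together, and fitting all probe sets, were chosen after seeing the data.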

Additional observations from a re-analysis of the deposited data

Results flagged for a closer look

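For 10 members the effect of palmitate, against full medium, differed from that of a ligand, against charcoal serum, by the interaction term of the limma fit. Values are palmitate effect minus ligand effect on the log2 scale. The Rnu3a probe set differed most, by 3.37 against retinoic acid, 3.54 against TTNPB and 3.91 against GW1516. It was called higher with palmitate (adjusted p = 0.0487 in the limma fit) and lower with each ligand. The joint reading of the Rnu3b copies, also U3, changed by 0.29 with palmitate and did not pass. With retinoic acid, TTNPB and GW1516 that reading changed by -0.98, -0.44 and -1.08, and it did not pass with TTNPB.

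The scaRNAs differed too. Scarna17 differed by 1.88, 2.06 and 2.27 in the same order, and Scarna6 by 1.76, 0.90 and 1.73. Scarna2, which rose with the ligands, differed by -1.06 against TTNPB and -0.58 against GW1516.

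Among H/ACA members, Snora78 differed by 1.37, 1.18 and 1.12, Snora16a by 1.37 against retinoic acid, and Snora44 by 0.84 against retinoic acid and 0.93 against GW1516. Among the other C/D members, Snord118 differed by 1.32 and Snord13 by 1.03 against retinoic acid, and Snord104 by 1.05 against GW1516. The ligand effects share the charcoal controls, the palmitate effect enters each difference, and serum cannot be told apart from treatment.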

How the results depend on the processing

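Counts of members called moved with these settings, and the cause was not tested. Counts over all genes moved as well and are given as ranges below, so a shift in members alone cannot be read from these counts. For retinoic acid (13 called), the fit of only the groups compared gave 31, array weights 21, GW1516 replicate 3 and palmitate replicate 2 left out together 33, and a threshold of 0.01 gave 8; single arrays left out gave 10 to 14. For TTNPB (5), the same settings gave 8, 6, 13 and 2, arrays of the same serum 3, the replicate block 2, median centring 3 and single arrays left out 2 to 4. For GW1516 (9), only the groups compared gave 0, median centring 4, a threshold of 0.01 gave 4 and left-out arrays 4 to 9. For palmitate (3), only the groups compared, the same serum and median centring gave 1 each, array weights and both arrays left out 7 each, and left-out arrays 1 to 3.

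For retinoic acid minus TTNPB (5), only the groups compared gave 25, the same serum 9, median centring 3, array weights 13, both arrays left out 23 and single left-out arrays 2 to 5. For retinoic acid minus GW1516 (0), the same serum and quantile normalization gave 1 each, array weights 3, both arrays left out 8 and single arrays 0 to 2. For TTNPB minus GW1516 (3), only the groups compared, the replicate block, median centring and a threshold of 0.01 gave 0, the same serum 1, both arrays left out 8 and single arrays 0 to 3. Members that differed between palmitate and a ligand (10) numbered 20 with array weights, 30 with both arrays left out, 6 at 0.01 and 8 to 16 with single arrays left out. All-gene counts for palmitate minus retinoic acid effects ranged from 192 to 1449 (568 in the fit used). They ranged from 23 to 483 (126) for palmitate minus TTNPB effects and from 8 to 849 (280) for palmitate minus GW1516 effects.

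The replicate block, whose numbers only name arrays, gave 12, 2, 8 and 3 members for retinoic acid, TTNPB, GW1516 and palmitate, and 4, 0 and 0 for the ligand pairs. All-gene counts ranged from 518 to 2201 for retinoic acid (1174 in the fit used), 93 to 972 for TTNPB (279), 3 to 1122 for GW1516 (570), 1 to 661 for palmitate (151), 9 to 249 for retinoic acid minus TTNPB (34), 2 to 195 for retinoic acid minus GW1516 (78) and 0 to 66 for TTNPB minus GW1516 (15).

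Only values that were not called turned sign. Snora75 with palmitate became 0.11 with array weights and 0.34 without palmitate replicate 2, alone or with GW1516 replicate 3, and ranged from -0.36 to 0.34 over left-out arrays. Scarna2 with palmitate became -0.0007 under median centring and ranged from -0.035 to 0.069 over left-out arrays. Rnu3a ranged from -0.061 to 0.34 for retinoic acid minus TTNPB and from -0.083 to 0.69 for TTNPB minus GW1516. Snord118 for TTNPB minus GW1516 became 0.030 after quantile normalization and 0.029 with array weights, and ranged from -0.10 to 0.18 over left-out arrays.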
